A study of Mus musculus with 2 samples.

Results

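The genes described here are 42 genes of DNA replication and mitosis, measured in pericardial adipose tissue (PAT) of wild type (WT) and P2Y4 KO mice. They were chosen by gene symbol, as every row of the gene table that carries 1 of 42 symbols, and all 42 were among the 23609 genes listed. 24 of them act at the G1/S transition or in replication, and 18 act at the G2/M transition or in mitosis. PAT is the fat depot around the heart, and P2Y4 is a cell surface receptor for nucleotides. The tissue was taken 24 h after the LAD, a coronary artery that feeds the left ventricle, had been tied off. Both genotypes had the C57BL/6J background and underwent LAD ligation, and the study used males and females aged 11 to 13 weeks. RNA from the PAT of 3 mice was pooled into 1 library per genotype, so that the 2 libraries were compared with no replicate and without an SD or a p-value. The comparison asks how the PAT transcriptome of P2Y4 KO mice differs from that of WT mice after LAD ligation.

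A cell that divides first licenses its origins of replication in G1, when the ORC, Cdc6 and Cdt1 proteins load the MCM helicase on DNA. E2F transcription factors, released from RB proteins, then switch on genes for nucleotide synthesis and replication. Later in the cycle Cdk1 with cyclins A and B drives mitosis, where Aurora and Polo-like kinases, the spindle checkpoint and kinesin motors divide the chromosomes. Transcripts of these genes are scarce in resting tissue and are widely used as marks of dividing cells. In adipose tissue the cells that can divide include immune cells, endothelial cells and adipocyte progenitors, while mature adipocytes do not usually divide.

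The values were gene-level reads brought to a common total of 20000000 in each library, and CPM (reads per 1000000 reads) was the deposited value divided by 20. The fitted depth was 15508820 reads for the WT library and 14885824 reads for the P2Y4 KO library. Each P2Y4 KO/WT ratio is given with its exact 95% Clopper-Pearson interval, which covers counting error only and not the differences between mice, dissections or library preparations. The table has no entry for P2ry4, the deleted gene, and thus gives no check of which library is the KO. The 10 adipocyte markers had reads in both libraries and summed to 2125 CPM in WT and 4080 CPM in P2Y4 KO PAT. Fabp4, a fatty acid binding protein of adipocytes, had 1293 CPM in WT and 1914 CPM in P2Y4 KO PAT. Its ratio of 1.48 was the lowest of the 10. Lep, named after its value was seen, had 0.40 CPM in WT and 11.05 CPM in P2Y4 KO PAT.

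The 2 groups of genes are known for different promoter elements, which are shown here because the members are described by these groups. RefSeq promoters (GRCm38.p6, 250 bases before to 50 bases after the gene start) were matched for 34 of the 42 genes, and Aurkb, Ccna2, Ccne2, Gins2, Kif20a, Mcm4, Pole and Tpx2 were not matched. The E2F site was searched as TTTGGCGC, TTTCGCGC, TTTCCCGC or TTTGCCGC on both strands, so that 2 matches can overlap in a palindromic stretch. It was found in 8 of 20 G1/S and replication genes (40%) and in 1 of 14 G2/M and mitosis genes (7.14%), Cdk1, beside 2.61% of all 27025 genes with a promoter. The matches stand in capitals in 3 windows. These windows lie 36 to 120 bases before the start of Mcm6 (chr1:128359741-128359825, minus strand), 131 to 170 bases before that of Mcm5 (chr8:75109339-75109378, plus strand) and 116 to 155 bases before that of Pola1 (chrX:93632271-93632310, minus strand). None of the 3 windows overlaps an annotated exon of its own gene, and exons of other genes were not checked.
Mcm6: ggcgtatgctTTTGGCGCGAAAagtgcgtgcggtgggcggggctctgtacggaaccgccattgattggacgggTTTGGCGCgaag
Mcm5: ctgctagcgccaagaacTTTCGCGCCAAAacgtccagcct
Pola1: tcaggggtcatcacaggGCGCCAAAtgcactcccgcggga

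The cell cycle genes homology region (CHR), searched as TTTGAA or TTCGAA on both strands, was found in 11 of 14 G2/M and mitosis genes (78.6%) and in 5 of 20 G1/S and replication genes (25%), beside 21.7% of all genes. In the 250 bases before the start alone, 7 of the 14 had it, beside 19.6% of all genes. The CCAAT box, searched as CCAAT on both strands, was found in 13 of the 14 and in 14 of the 20, beside 41.1% of all genes. The windows in which both motifs stand in capitals are those of Top2a (chr11:99024190-99024274, minus strand), Kif11 (chr19:37376322-37376381, plus strand), Cdc20 (chr4:118437353-118437403, minus strand) and Mki67 (chr7:135716465-135716574, minus strand), and that of the G1/S gene E2f8 (chr7:48881597-48881716, minus strand). They lie upstream of the start and overlap no annotated exon of their own genes, and exons of other genes were not checked.
Top2a: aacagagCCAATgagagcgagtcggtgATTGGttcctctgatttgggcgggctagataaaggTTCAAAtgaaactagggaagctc
Kif11: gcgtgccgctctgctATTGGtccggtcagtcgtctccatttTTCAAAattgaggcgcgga
Cdc20: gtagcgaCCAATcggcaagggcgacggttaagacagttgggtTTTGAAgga
Mki67: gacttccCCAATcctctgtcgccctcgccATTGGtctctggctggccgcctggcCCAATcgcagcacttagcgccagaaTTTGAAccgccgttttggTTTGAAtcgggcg
E2f8: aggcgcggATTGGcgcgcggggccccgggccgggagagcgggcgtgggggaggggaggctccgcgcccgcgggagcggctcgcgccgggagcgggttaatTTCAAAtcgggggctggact
A match is a run of letters and was not tested for binding. Genes with the same motifs differed in ratio, as Top2a and Mki67, which both carry the CHR and the CCAAT box, had ratios of 2.69 (2.32 to 3.15) and 1.77 (1.54 to 2.04). The median log2 P2Y4 KO/WT ratio was 0.82 in the 9 members with an E2F site and 0.86 in the 25 without, and it was 0.98 in the 16 with a CHR and 0.79 in the 18 without.

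All 42 genes had more CPM in P2Y4 KO than in WT PAT. The summed level of the 42 genes was 833 CPM in WT and 1253 CPM in P2Y4 KO PAT, with a ratio of 1.5 (1.47 to 1.54), and the median log2 ratio was 0.82. All 42 passed the filter of CPM above 0.5 in at least 1 library, as did 18474 genes of the table, whose median log2 ratio was 0.00. A ratio above 1 was found in 49.5% of those genes. The whole interval lay above 1 in 38 of the 42 members, beside 25.2% of all genes, and below 1 in 0 of the 42, beside 23.5%. The intervals of Aurka, Cdc20, Cenpe and Ccnb2 spanned 1.

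Fewer genes passed the threshold of a 2-fold ratio. 15 of the 42 (35.7%) had a ratio of at least 2, beside 8.75% of all genes and 6.00% of the 12882 genes whose mean CPM lay within the range of the members. 0 of the 42 had a ratio of at most 0.5, beside 4.40% of all genes. The whole interval lay above 2 in 6 of the 42, beside 3.05% of all genes. These 6 were E2f8, Rrm2 and Cdc6 of the G1/S group and Aurkb, Bub1 and Top2a of the G2/M group. No test stands behind these shares. In RNA of a whole tissue, more cells that express these genes and more of their RNA per cell cannot be told apart.

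**Figure D1:**
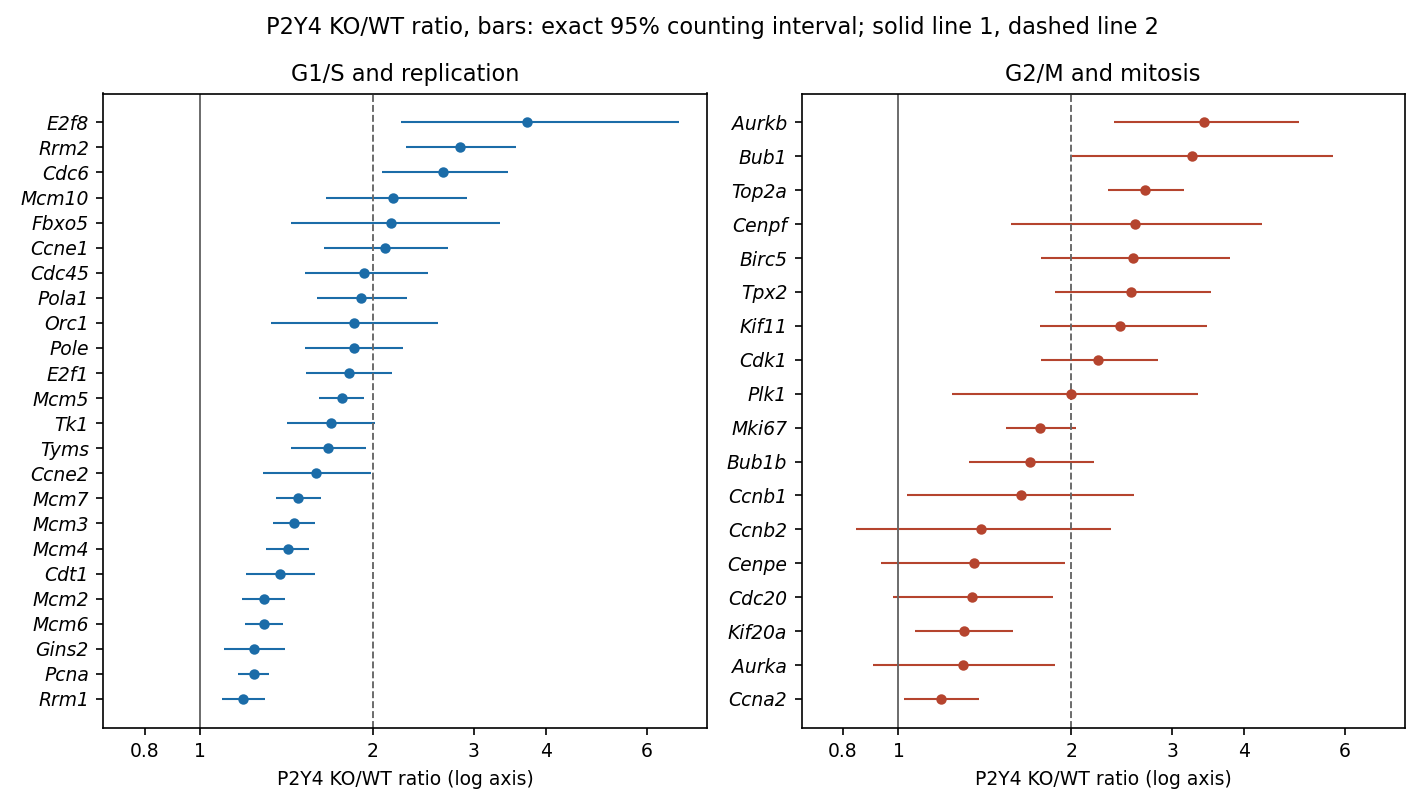
P2Y4 KO/WT ratio of each of the 42 genes on a log axis, in 2 panels for the G1/S and replication genes and the G2/M and mitosis genes. Points are ratios, bars are exact 95% counting intervals, the solid line marks a ratio of 1 and the dashed line a ratio of 2. Every point lies to the right of 1, from 1.19 for Ccna2 to 3.71 for E2f8, and the bars of 4 G2/M genes cross 1.

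A ratio of at least 2 was found in 9 of the 18 G2/M and mitosis genes (50%). It was found in 6 of the 24 G1/S and replication genes (25%), beside 8.75% of all genes. The summed level of the G2/M genes was 116 CPM in WT and 213 CPM in P2Y4 KO PAT, with a ratio of 1.84 (1.74 to 1.95). The summed level of the G1/S and replication genes was 717 CPM in WT and 1040 CPM in P2Y4 KO PAT, with a ratio of 1.45 (1.42 to 1.49). The intervals of the summed ratios did not overlap. The medians lay closer together, at a log2 ratio of 0.91 for the G2/M genes and 0.79 for the G1/S genes, and the G1/S sum was led by Pcna and the MCM2-7 genes, whose ratios were 1.24 to 1.77. The G2/M group also held the 4 genes whose intervals spanned 1, all with at most 93 reads in either library, while all 24 G1/S intervals lay above 1.

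**Figure D2:**
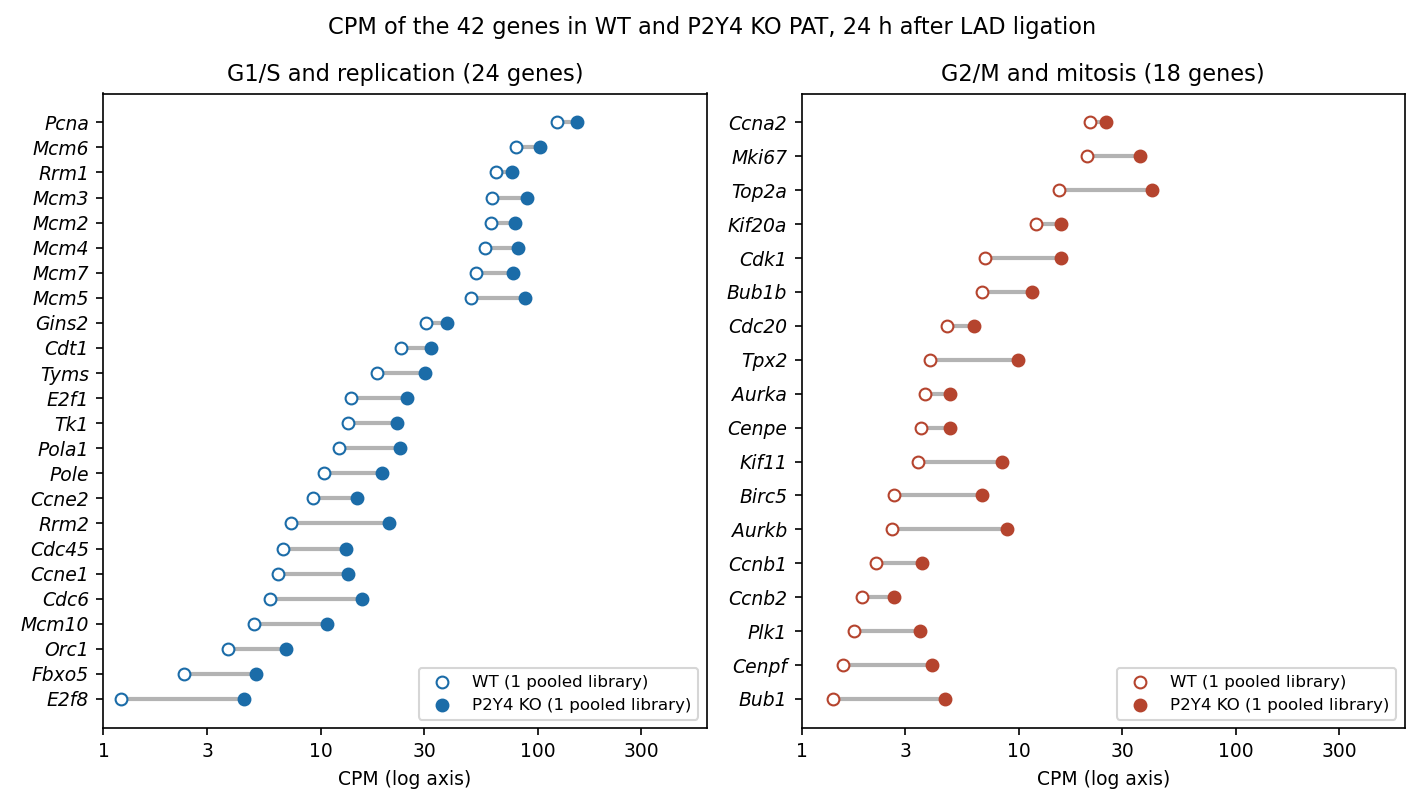
CPM of the 42 genes on a log axis, in 2 panels by group and ordered by the WT value. Open circles are the WT library and filled circles the P2Y4 KO library, each 1 library of RNA pooled from 3 mice, joined by a grey line. Every filled circle lies to the right of its open circle, and the longest lines belong to E2f8, Aurkb and Bub1.

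Among the regulators of S phase entry, the cyclins E, partners of Cdk2, had intervals that overlapped each other. Ccne1 had 6.40 CPM (99 reads) in WT and 13.5 CPM (200 reads) in P2Y4 KO PAT, with a ratio of 2.10 (1.65 to 2.71). Ccne2 had 9.25 CPM (143 reads) and 14.8 CPM (219 reads), a ratio of 1.59 (1.29 to 1.98). The E2F factors differed more. E2f1, the founding activator of the family, had 13.8 CPM (213 reads) in WT and 24.95 CPM (371 reads) in P2Y4 KO PAT, with a ratio of 1.81 (1.53 to 2.16). E2f8 (ENSMUSG00000046179, chr7:48866429-48881596, minus strand), an atypical E2F that represses E2F target genes, had 1.20 CPM (18 reads) and 4.45 CPM (66 reads). Its ratio of 3.71 (2.24 to 6.84) was the highest of the 42, and its interval lay above that of E2f1. Fbxo5 (Emi1), an inhibitor of the anaphase-promoting complex, had 2.35 CPM (36 reads) in WT and 5.05 CPM (75 reads) in P2Y4 KO PAT, with a ratio of 2.15 (1.44 to 3.33).

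The 3 members that license origins were all above 1, with Cdc6 highest. Cdc6 (ENSMUSG00000017499, chr11:98907801-98923940, plus strand), the ATPase that joins ORC to load the helicase, had 5.85 CPM (90 reads) in WT and 15.5 CPM (230 reads) in P2Y4 KO PAT, with a ratio of 2.65 (2.08 to 3.44). Cdt1, its partner in loading, had 23.5 CPM (363 reads) and 32.3 CPM (480 reads), a ratio of 1.38 (1.20 to 1.58). These intervals did not overlap. Orc1, the largest subunit of the origin recognition complex, had 3.75 CPM (58 reads) and 6.95 CPM (103 reads), a ratio of 1.85 (1.33 to 2.60). The other subunits, Orc2 to Orc6, had ratios of 0.71 to 0.99 and were named after their values were seen. Orc1 had the lowest level per exon length of the 6 subunits in both libraries, at 1.08 CPM per kb in WT and 2.00 CPM per kb in P2Y4 KO PAT, where Orc2 had 13.6 and 10.6 CPM per kb.

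The MCM2-7 helicase genes, which unwind the DNA ahead of the fork as 1 complex of 6 subunits, had none of their ratios at 2. Their summed level was 361 CPM in WT and 517 CPM in P2Y4 KO PAT, with a ratio of 1.43 (1.38 to 1.48). Mcm5 stood at 49.6 CPM (769 reads) in WT and 87.6 CPM (1303 reads) in P2Y4 KO PAT, with a ratio of 1.77 (1.61 to 1.93). Mcm2 and Mcm6 had a ratio of 1.29 each, with intervals of 1.18 to 1.41 and 1.20 to 1.39. The interval of Mcm5 lay above both, so that genes of the same complex differed by more than counting error. Mcm6 had 79.7 CPM (1236 reads) in WT and 103 CPM (1531 reads) in P2Y4 KO PAT, and Mcm2 had 60.7 CPM and 78.4 CPM. Mcm4 had 57.0 and 80.9 CPM, a ratio of 1.42, Mcm3 had 61.4 and 89.3 CPM, a ratio of 1.46, and Mcm7 had 52.3 and 77.4 CPM, a ratio of 1.48. The 6 genes lay within 8.73 to 17.1 CPM per kb of exon in WT and 11.3 to 23.8 CPM per kb in P2Y4 KO PAT.

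The members that turn the loaded helicase into an active fork had lower levels and ratios from 1.24 to 2.17. Cdc45, a helicase cofactor, had 6.75 CPM (104 reads) in WT and 13.1 CPM (194 reads) in P2Y4 KO PAT, with a ratio of 1.93 (1.52 to 2.49). Mcm10, which helps to start the fork and is no subunit of the MCM2-7 ring, had 4.95 CPM (76 reads) and 10.8 CPM (160 reads), a ratio of 2.17 (1.66 to 2.92). Gins2, a subunit of the GINS cofactor, had 30.7 CPM (475 reads) and 38.1 CPM (567 reads), a ratio of 1.24 (1.10 to 1.41). Its interval lay below those of Cdc45 and Mcm10, but 67.3% of its exon bases lie on the opposite strand of exons of Gse1, which had 42.7 and 45.1 CPM. The other GINS subunits were named after their values were seen. Gins1 had a ratio of 1.99 (1.51 to 2.68), Gins3 one of 1.70 (1.22 to 2.37) and Gins4 one of 1.22 (1.06 to 1.41).

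Among the members at the fork, the polymerase genes Pola1 and Pole had higher ratios than the clamp gene Pcna. Pcna, the sliding clamp that holds the polymerases on DNA, had 122 CPM (1899 reads) in WT and 152 CPM (2258 reads) in P2Y4 KO PAT, with a ratio of 1.24 (1.16 to 1.32). It had the highest level per length of the 42 genes in both libraries, at 51.0 and 63.2 CPM per kb. Pola1, the catalytic subunit of the primer-making polymerase alpha, had 12.2 CPM (188 reads) and 23.2 CPM (345 reads), a ratio of 1.91 (1.60 to 2.30). Pole, the catalytic subunit of the leading strand polymerase epsilon, had 10.4 CPM (161 reads) and 19.3 CPM (286 reads), a ratio of 1.85 (1.52 to 2.26). Both intervals lay above that of Pcna. Other polymerase subunits did not share this. Pola2, Pold1, Pold2, Pold3 and Pole2 had ratios from 1.01 (0.90 to 1.14) for Pold3 to 1.32 (1.05 to 1.66) for Pole2. These subunits were named after their values were seen.

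The subunits of ribonucleotide reductase, which makes the deoxynucleotides, had intervals that did not overlap. Rrm1, its large subunit, had 64.4 CPM (998 reads) in WT and 76.5 CPM (1138 reads) in P2Y4 KO PAT, with a ratio of 1.19 (1.09 to 1.29). Rrm2 (ENSMUSG00000020649, chr12:24708241-24714146, plus strand), the small subunit that is made in S phase, had 7.30 CPM (113 reads) and 20.7 CPM (308 reads), a ratio of 2.84 (2.28 to 3.55). Per kb of exon, Rrm1 stood at 5.85 and Rrm2 at 2.63 CPM in WT, and at 6.94 and 7.47 CPM in P2Y4 KO PAT, where the levels lay close together and their order was not set against counting error. Tyms, the thymidylate synthase, had 18.2 and 30.3 CPM, a ratio of 1.67 (1.44 to 1.95). Tk1, the cytosolic thymidine kinase, had 13.4 and 22.6 CPM, a ratio of 1.69 (1.42 to 2.02).

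Of the cyclins A and B and their kinase, Cdk1 alone reached 2. Cdk1, the kinase that drives entry into mitosis, had 7.0 CPM (108 reads) in WT and 15.6 CPM (232 reads) in P2Y4 KO PAT, with a ratio of 2.23 (1.77 to 2.84). Ccna2, a cyclin of S phase and G2, had 21.3 CPM (329 reads) and 25.2 CPM (375 reads). Its ratio of 1.19 (1.02 to 1.38) was the lowest of the 42 and its interval lay below that of Cdk1. 12.5% of its exon bases lie opposite exons of Exosc9. The cyclins B1 and B2 had few reads. Ccnb1 had 2.20 CPM (34 reads) and 3.60 CPM (53 reads), a ratio of 1.64 (1.04 to 2.58), and Ccnb2 had 1.90 CPM (29 reads) and 2.65 CPM (39 reads), a ratio of 1.39 (0.84 to 2.35). The pseudogene Ccnb2-ps was listed at 1.90 and 1.35 CPM. How reads that match both copies were counted is not given in the sources used here, and it could affect the counts of Ccnb2.

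The mitotic kinases and survivin had a summed ratio of 2.24 (1.86 to 2.71), with Aurora kinases A and B far apart. Aurkb (ENSMUSG00000020897, chr11:69045647-69051664, plus strand), the kinase that corrects attachments of chromosomes to the spindle, had 2.60 CPM (40 reads) in WT and 8.85 CPM (131 reads) in P2Y4 KO PAT, with a ratio of 3.40 (2.38 to 4.99). Aurka, the centrosome kinase, had 3.70 CPM (57 reads) and 4.80 CPM (71 reads), a ratio of 1.30 (0.90 to 1.87). These intervals did not overlap. Aurka had the higher level per length in WT, at 1.46 against 0.88 CPM per kb, and Aurkb had the higher in P2Y4 KO PAT, at 3.00 against 1.90 CPM per kb. Birc5 (survivin), which holds Aurkb at the centromere, had 2.65 CPM (41 reads) and 6.80 CPM (101 reads), a ratio of 2.57 (1.77 to 3.79). The other subunits of that complex, named after their values were seen, were Incenp with a ratio of 1.53 (1.32 to 1.80) and Cdca8 with 1.80 (1.39 to 2.34), both with intervals below that of Aurkb. Plk1, the Polo-like kinase, had 1.75 CPM (27 reads) and 3.50 CPM (52 reads), which puts it at the threshold with a ratio of 2.00 (1.24 to 3.32).

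The checkpoint and kinetochore genes spread from 1.34 to 3.25. Bub1 (ENSMUSG00000027379, chr2:127801122-127831865, minus strand), a kinase of the spindle checkpoint, had 1.40 CPM (21 reads) in WT and 4.55 CPM (67 reads) in P2Y4 KO PAT, with a ratio of 3.25 (2.01 to 5.71). Bub1b (BubR1), its relative in the same checkpoint, had 6.75 CPM (104 reads) and 11.5 CPM (170 reads), a ratio of 1.70 (1.33 to 2.20), and the intervals overlapped. Cdc20, the activator of the anaphase-promoting complex that the checkpoint holds back, had 4.65 CPM (72 reads) and 6.25 CPM (93 reads), a ratio of 1.34 (0.98 to 1.86). Cenpe, a kinetochore motor, had 3.55 CPM (55 reads) and 4.80 CPM (71 reads), a ratio of 1.35 (0.93 to 1.95). For both, a difference between the libraries was not detectable at this depth. Cenpf, a large kinetochore protein, had 1.55 CPM (24 reads) and 4.0 CPM (59 reads), a ratio of 2.58 (1.57 to 4.31), and the lowest level per length of the 42 genes, at 0.10 and 0.26 CPM per kb.

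The spindle and chromosome proteins included the best counted of the high ratios. Top2a (ENSMUSG00000020914, chr11:98992943-99024189, minus strand), the topoisomerase that untangles sister chromatids, had 15.3 CPM (236 reads) in WT and 41.1 CPM (611 reads) in P2Y4 KO PAT, with a ratio of 2.69 (2.32 to 3.15). Mki67, the Ki-67 protein that coats mitotic chromosomes, had 20.6 CPM (318 reads) and 36.3 CPM (540 reads), a ratio of 1.77 (1.54 to 2.04), with an interval below that of Top2a. Kif11, the motor that pushes the spindle poles apart, had 3.45 CPM (53 reads) and 8.40 CPM (125 reads), a ratio of 2.43 (1.77 to 3.46). Tpx2, which nucleates spindle microtubules and activates Aurka, had 3.90 CPM (60 reads) and 9.90 CPM (147 reads), a ratio of 2.54 (1.88 to 3.51). Kif20a, a motor of cytokinesis, had 12 CPM (186 reads) and 15.6 CPM (232 reads), a ratio of 1.30 (1.07 to 1.58). Its interval lay below those of Kif11 and Tpx2, and 29.3% of its exon bases lie opposite exons of Cdc23.

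The members with the most reads included few of the high ratios. Of the 14 members with a mean above 20 CPM, 1 (Top2a) had a ratio of at least 2, and their median log2 ratio was 0.48. Of the 28 members at 20 CPM or less, 14 had a ratio of at least 2, and their median was 0.98. Over all genes, 2.84% of those above 20 CPM and 14.3% of those at 20 CPM or less had a ratio of at least 2. Across the 42 genes Spearman's rho between the ratio and the mean CPM was -0.49. It was -0.87 across the 24 G1/S genes and -0.06 across the 18 G2/M genes, and -0.10 across all 18474 genes. These values describe genes that share the same 2 libraries and are not independent replicates. The order of the 42 genes by level per exon length had a rho of 0.96 between WT and P2Y4 KO PAT.

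**Figure D3:**
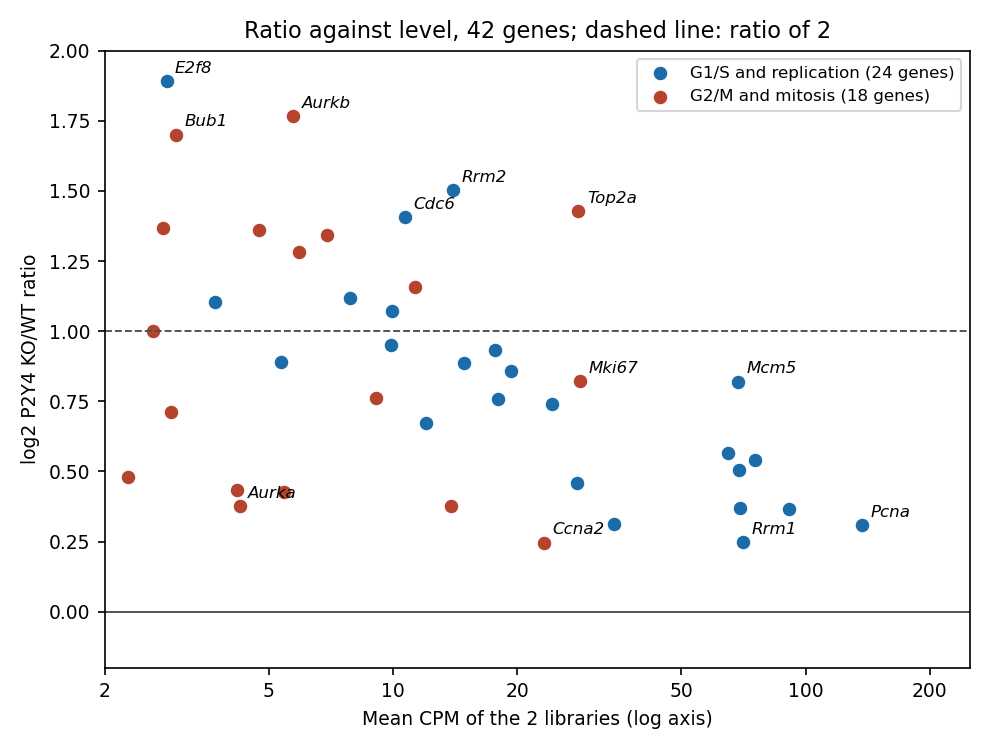
log2 P2Y4 KO/WT ratio of the 42 genes against their mean CPM in the 2 libraries on a log axis, coloured by group, with the solid line at a ratio of 1 and the dashed line at a ratio of 2. The G1/S genes run from E2f8 at the upper left to Pcna and Rrm1 at the lower right (rho -0.87), and the G2/M genes show no such slope (rho -0.06).

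Other genes of the cell cycle were taken from 4 lists with 158 genes outside the 42, all of which passed the filter. Of 65 other mitosis genes, 22 (33.8%) had a ratio of at least 2, beside 8.75% of all genes. 1 (1.54%) had a ratio of at most 0.5, beside 4.40% of all genes. A ratio above 1 was found in 60 of the 65, beside 49.5% of all genes. The median log2 ratio of the 65, at 0.87, was close to that of the 18 members of mitosis. The named examples were Melk, a kinase of dividing cells, with 1.5 CPM in WT and 5.15 CPM in P2Y4 KO PAT, and Ube2c, a ubiquitin-conjugating enzyme of the anaphase-promoting complex, with 2.85 and 8.0 CPM. Their ratios were 3.43 (2.14 to 5.75) and 2.81 (1.98 to 4.08). The kinase gene Pbk and the kinesin gene Kif18b had ratios of 3.30 (2.05 to 5.54) and 4.86 (1.96 to 17.4). The gene with a ratio of at most 0.5 was Kif18a, a kinesin of chromosome alignment, at 2.20 and 1.05 CPM, a ratio of 0.48 (0.23 to 0.87). It was named after its value was seen.

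Of 51 other replication genes, 10 (19.6%) had a ratio of at least 2, beside 8.75% of all genes. 0 had a ratio of at most 0.5, beside 4.40% of all genes. A ratio above 1 was found in 44 of the 51, beside 49.5% of all genes. The median log2 ratio of the 51, at 0.34, was lower than the 0.79 of the 24 members. The named examples were Clspn, the checkpoint adaptor of the fork, with 3.00 CPM in WT and 9.75 CPM in P2Y4 KO PAT, and Uhrf1, which keeps DNA methylation at the fork, with 30.5 and 63.0 CPM. Their ratios were 3.25 (2.34 to 4.68) and 2.07 (1.85 to 2.32). The histone chaperone gene Asf1b and the DNA ligase gene Lig1 had ratios of 2.48 (1.86 to 3.35) and 2.19 (1.91 to 2.52). The whole interval lay above 1 in 37 of the 51, beside 25.2% of all genes. It lay below 1 in 3, beside 23.5% of all genes. The 3 were Orc5 with 0.71 (0.62 to 0.82), Orc2 with 0.78 (0.70 to 0.87) and Usp1 with 0.89 (0.81 to 0.97). These 3 were named after their values were seen.

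The regulators upstream of the 42 genes were spread around a ratio of 1. The median log2 ratio of 23 G1 cyclins, kinases, RB and E2F genes was 0.07. Over all genes, 8.75% had a ratio of at least 2 and 4.40% a ratio of at most 0.5. Of the 23, 1 (4.35%) had a ratio of at least 2 and 1 (4.35%) a ratio of at most 0.5. The former was E2f7, the other atypical E2F, with 0.55 CPM (8 reads) in WT and 1.85 CPM (27 reads) in P2Y4 KO PAT, with a ratio of 3.36 (1.55 to 8.96), and the latter was Mycn with 0.45 (0.25 to 0.78), named after its value was seen. The D cyclins, which pair with Cdk4 and Cdk6, had ratios of 1.14 (1.06 to 1.22) for Ccnd1, 1.497 (1.41 to 1.58) for Ccnd2 and 1.05 (0.99 to 1.11) for Ccnd3. The RB relatives Rbl1 (p107) and Rbl2 (p130) had ratios of 1.66 (1.41 to 1.95) and 1.59 (1.42 to 1.79).

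The median log2 ratio of 19 CDK inhibitors and arrest genes was 0.10. Of the 19, 0 had a ratio of at most 0.5, beside 4.40% of all genes. A ratio of at least 2 was found in 2 (10.5%, beside 8.75% of all genes). The 2 were the Cdk4 and Cdk6 inhibitors Cdkn2c, with 24.9 CPM in WT and 56.2 CPM in P2Y4 KO PAT, and Cdkn2b, with 5.05 and 12.1 CPM. Their ratios were 2.26 (2.00 to 2.56) and 2.39 (1.82 to 3.16). Cdkn2a had a ratio of 1.49 (1.17 to 1.90) and Cdkn1a (p21) a ratio of 1.14 (1.09 to 1.20). The other inhibitors lay below 1, Cdkn1b with 0.85 (0.76 to 0.96), Cdkn2d with 0.87 (0.77 to 0.97) and Cdkn1c with 0.66 (0.44 to 0.98). The growth arrest genes Btg2 and Gadd45g had ratios of 1.37 (1.28 to 1.47) and 1.51 (1.28 to 1.77). The inhibitors thus lay on both sides of 1. Of the 19 genes, the whole interval lay above 1 in 11, beside 25.2% of all genes. It lay below 1 in 4, beside 23.5% of all genes. The 42 members lay on 1 side, but they were chosen with earlier results of these data known. The other mitosis and other replication genes also lay on both sides, with 60 of 65 and 44 of 51 above 1.

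**Figure D4:**
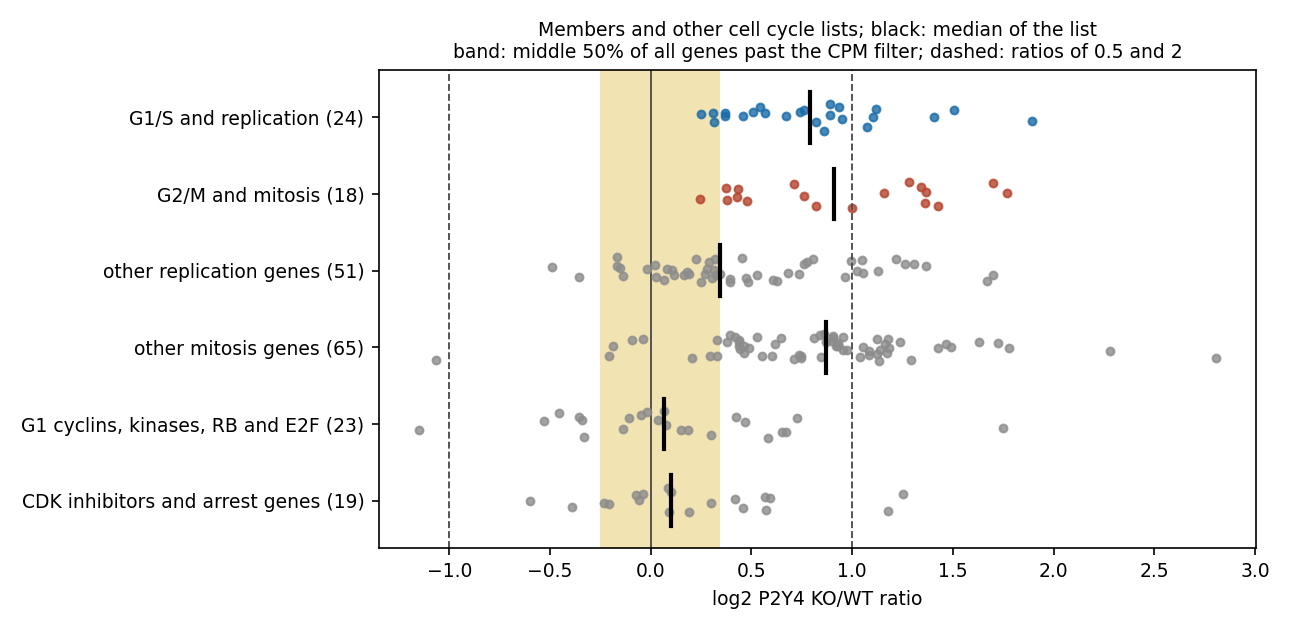
log2 P2Y4 KO/WT ratio of each gene in the 2 groups of members and in 4 other lists, with the number of genes in brackets. Each point is 1 gene, black bars are the medians of the lists (0.79, 0.91, 0.34, 0.87, 0.07 and 0.10 from top to bottom), the band holds the middle 50% of all genes past the filter, and dashed lines mark ratios of 0.5 and 2. The points of the members all lie to the right of 0, and the 2 lists of regulators lie around 0.

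Markers of several cell types also differed between the libraries. Over all genes, 8.75% had a ratio of at least 2 and 4.40% a ratio of at most 0.5. The whole interval lay above 1 in 25.2% of all genes, above 2 in 3.05% and below 1 in 23.5%. The summed level of 13 T cell markers was 40.0 CPM in WT and 69.9 CPM in P2Y4 KO PAT. Of the 13, 6 had a ratio of at least 2, and the whole interval lay above 2 in 1 and above 1 in 12. Cd2, the T cell marker with the most reads, had a ratio of 0.92 (0.75 to 1.13). The summed level of 9 endothelial markers was 116 and 189 CPM, with 5 of 9 at 2 or more and 1 of 9 at 0.5 or less. The latter was Kdr, at 35.8 and 17.6 CPM, a ratio of 0.49 (0.42 to 0.57). The 10 adipocyte markers summed to 2125 and 4080 CPM, with 8 of 10 at 2 or more. The 9 cardiomyocyte markers listed summed to 7.05 CPM in WT and 412 CPM in P2Y4 KO PAT, and all 9 had a ratio of at least 2. Lower in P2Y4 KO PAT were 10 mesothelial markers, at 2351 and 712 CPM, with 9 of 10 at a ratio of at most 0.5. The 7 granulocyte precursor markers summed to 1170 and 427 CPM, a sum carried by Chil3 at 1136 and 397 CPM. 4 of the 7 had a ratio of at most 0.5, but the whole interval lay below 1 in 2 of 7, and Prtn3 had a ratio of 1.22 (1.05 to 1.41). Of 8 mature neutrophil markers, 2 had a ratio of at most 0.5 and 7 an interval below 1. The other 8 lists (immature thymocytes, B cells, germinal centre B cells, plasma cells, macrophages, mature neutrophils, erythroid cells, fibroblasts with adipose progenitors) had summed ratios of 0.83 to 1.33. Of the immature thymocyte markers, Rag1, Rag2, Ptcra and Arpp21 were not listed and Dntt had 0.20 and 0.15 CPM. The part of any of these cell types in the values of the 42 genes was not tested.

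**Figure D5:**
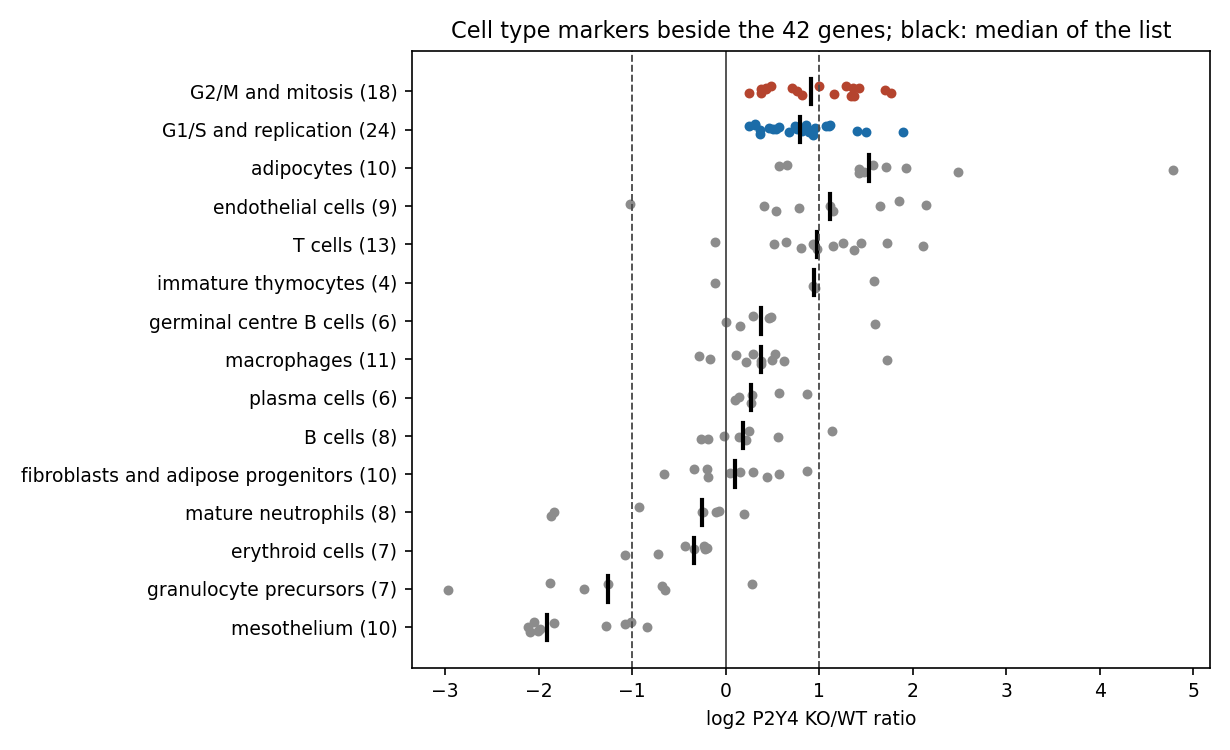
log2 P2Y4 KO/WT ratio of the markers of 13 cell types and of the 2 groups of members, ordered by the median of each list (black bar), with the number of genes past the filter in brackets. Dashed lines mark ratios of 0.5 and 2, and cardiomyocyte markers (median log2 ratio 6.66) lie beyond the axis and are left out. Members lie to the right of 0, as do most adipocyte, endothelial and T cell markers, while mesothelial markers lie to the left.

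For 11 of the 42 genes, exon bases overlap an antisense gene with CPM above 0.5, and whether the counting used the strand is not given in the sources used here. Of these 11 genes, 1 (E2f8, 9.09%) had a ratio of at least 2, and the median log2 ratio was 0.67. Of the other 31 genes, 14 (45.2%) had a ratio of at least 2 and the median was 0.86. Over all genes, 8.75% had a ratio of at least 2.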

How the data were processed

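RNA of 3 mice per genotype was pooled and sequenced as 1 library each of WT and P2Y4 KO PAT, 24 h after LAD ligation (TruSeq Stranded mRNA kit). The submitters' processing notes and the study's methods name Trimmomatic, STAR, HTSeq and GRCm38.p4 (mm10) with the Ensembl release 87 annotation. For tool versions and the strand setting: not given in the sources used here. By its values, the signal deposited by the authors is the read number of each gene, scaled so that a library sums to 20000000 and then rounded upward. The authors also deposited a P2Y4 KO/WT ratio per gene and a list of regulated genes, which hold their own comparison and were not used.

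The planned design assumed counts or CPM. The reads behind each value were recovered from the steps between values (1 read was worth 1.29 in WT and 1.34 in P2Y4 KO PAT), and 99.89% and 99.85% of the values equalled a whole number of reads times that step, rounded up, with no tolerance. The lowest WT value was 2, so genes without reads in WT are not listed and not analysed here. CPM was the value divided by 20, ratios used no pseudocount, and 95% Clopper-Pearson intervals used the recovered reads of both libraries (Python 3.11.15, scipy 1.17.1). No count model was fitted. The interval code was tested on simulated data. Ratios of at least 2 or at most 0.5 were counted among genes above 0.5 CPM in either library, after the study's methods. Exon lengths and overlaps came from GENCODE annotation of GRCm38.

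The members and the lists were chosen with earlier results of these data known. All members were named. From each other list, up to 4 genes with the interval bound farthest from 1, the D cyclins and the CDK inhibitors were named. Of each marker list, the 1 or 2 markers with the most reads and any defining marker at 0 could be named. Dntt, which had reads in both libraries, was named outside this rule. Other genes named outside this rule are marked as such. The alternatives were 4 other filters, 4 other scalings, 0.5 CPM added, other thresholds, another placing of Ccna2 and Fbxo5 and a shorter promoter window. The ratio of recovered reads and the members without antisense overlap were added after seeing the data.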

Additional observations from a re-analysis of the deposited data

How the results depend on the processing

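The 4 scalings were TMM, median-of-ratios, the total without the 100 most abundant genes, and ribosomal protein genes set to a ratio of 1. All 42 members kept a ratio above 1 under each. The lowest ratio of the members was 1.19 and the largest divisor of a scaling was 1.02, so no scaling could have moved a member below 1. The 4 other filters, which all 42 passed, leave each ratio unchanged. Adding 0.5 CPM to both libraries cannot move a ratio across 1. With the whole interval past the threshold, the counts at 2 or more became 6 for the 42 members, 3 for the G1/S and 3 for the G2/M genes, 1 for the other replication, 2 for the other mitosis, 0 for the G1 regulator and 1 for the CDK inhibitor list. Over all genes, 3.05% had the whole interval above 2. At a ratio of 1.5 the counts became 27 (42 members), 15 (G1/S), 19 (other replication), 44 (other mitosis) and 4 (G1 regulators). The share of all genes at a ratio of 1.5 was not counted, so these counts have no background beside them. Setting 86 ribosomal protein genes to 1 added 0.20 to every log2 ratio, so that the median of all genes was 0.20 and that of the members 1.02. The counts at 2 or more then became 22 for the 42 members, 12 for the G1/S and 37 for the other mitosis genes. The share of all genes at 2 or more was not counted under this scaling. The summed ratios became 1.66 (G1/S) and 2.11 (G2/M). Median-of-ratios scaling gave a summed G1/S ratio of 1.42, and 0.5 CPM added gave 13 other mitosis genes. Of the 42 members, 14 were at 2 or more under TMM and under median-of-ratios, and 13 with 0.5 CPM added. The difference in median between the G1/S and G2/M genes moved with the placing of Ccna2 and Fbxo5, which act in both phases, to 0.75 against 1.05. The calls of Kif18a and Mycn at a ratio of at most 0.5 were both lost, leaving 0 such genes in their lists, with ribosomal protein genes set to 1, with 0.5 CPM added and with the whole interval past the threshold. No paired analysis was possible because each genotype has 1 library. With few reads, genes such as Ccnb2, Cenpe and Aurka allow ratios on either side of 1, and the intervals leave out the differences between mice.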
